A study of Schizosaccharomyces pombe with 12 samples.

Results

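The transcripts of *rpb1-12XS2ACTD* cells were set against those of *rpb1-12XCTD* cells after both fission yeast (*S. pombe*) strains had grown in latrunculin A (LatA). The comparison rests on the 6 LatA arrays among the 12 arrays of the study, chosen by sample title, and on all 4875 *S. pombe* probe sets. *rpb1-12XS2ACTD* cells carry a largest subunit of RNA polymerase II whose C-terminal domain (CTD) was shortened to 12 heptad repeats, with serine 2 of every repeat changed to alanine. *rpb1-12XCTD* cells carry the same shortened domain with 12 unchanged repeats, so the shortening is common to both strains. Both strains are h- in the study's strain list, with *ura4* as the marker of the *rpb1* allele and the mutations *ura4-D18* and *leu1-32*. Each genotype is represented by a single strain from a laboratory collection. Cultures received 0.5 µM LatA or its solvent DMSO for 3 h, and each of the 4 groups has 3 biological replicates on Affymetrix Yeast Genome arrays.

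The CTD is a tail of repeated heptads on RNA polymerase II whose serines are phosphorylated in turn as the polymerase moves along a gene. Serine 2 is the target of the Lsk1p kinase complex, of which Lsc1p is the cyclin, and its phosphorylation is known to recruit elongation and RNA processing factors. In fission yeast, loss of serine 2 phosphorylation is known to leave most transcription in place and to impair the induction of *ste11*, the gene of the master regulator of mating and meiosis. LatA binds actin monomers and so prevents the assembly of actin filaments, which perturbs the contractile ring that divides the cell. 

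The deposited values are log2 intensities in which the median of each probe set over the 12 arrays is 0. A value therefore gives a probe set on 1 array relative to the other arrays, and the level of one gene against another is not kept. The median over probe sets of the standard deviation (SD) between 3 replicates with LatA was 0.078 log2 in *rpb1-12XS2ACTD* and 0.068 in *rpb1-12XCTD*. With DMSO it was 0.097 in *rpb1-12XS2ACTD* and 0.20 in *rpb1-12XCTD*, so the 2 LatA groups were the tighter ones. All differences are *rpb1-12XS2ACTD* minus *rpb1-12XCTD* in log2, given with their standard error (SE) from limma. RNA came from whole cultures, so fewer expressing cells and less RNA per cell cannot be told apart, and p-values measure the spread between these cultures. To be called, a gene had to pass an adjusted p of 0.05 (Benjamini-Hochberg, over every probe set) and change by more than 1.5-fold.

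With LatA, *rpb1-12XS2ACTD* differed from *rpb1-12XCTD* in a small part of the transcriptome. *nmt1* and flocculin, subtelomeric and meiotic genes were among those that rose. Core genes of the pheromone pathway and *aip1* were among those that fell. So were 3 of 23 Mediator and 3 of 37 replication probe sets, some of which lost the call under other settings. Of the 4875 probe sets 235 were called by limma (4.82%), of which 100 were higher (2.05%) and 135 were lower (2.77%) in *rpb1-12XS2ACTD*. Array-wide scaling moved this split. The calls were 42.6% higher as deposited, 49.1% after median centring (110 higher, 114 lower) and 55.9% after quantile normalization (127 higher, 100 lower). The median difference over all probe sets was −0.05 (SD 0.30), and 94.9% of probe sets lay within 1.5-fold. Only 34 called probe sets were more than 2-fold higher and 17 more than 2-fold lower. Among the called probe sets the median difference was 0.85 for those that were higher and −0.72 for those that were lower. The 3 arrays of each strain did not overlap for any of the 235, against 47.7% of all probe sets. Of the 235, 187 have a gene name and 48 have none here.

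The largest rise was in *nmt1*, which encodes an enzyme of thiamine synthesis and is repressed by thiamine in the medium. The 3 LatA arrays of *rpb1-12XS2ACTD* gave log2 values of 4.94, 4.19 and 4.33, against 0.08, −0.09 and −0.27 in *rpb1-12XCTD*. All 3 mutant arrays lay far above the others, and the difference was 4.58 ± 0.19 (SE, limma adjusted p = 9.4e-05), a 23.9-fold rise. With DMSO the *rpb1-12XS2ACTD* arrays gave −0.08, 0.67 and 0.85, against −0.69, −0.63 and −0.47 in *rpb1-12XCTD*, a difference of 1.08 that limma did not call (adjusted p = 0.234). The high values were thus those of the LatA-treated mutant. Of the 9 thiamine genes measured, *nmt1* was the only one called (11.1%, against 4.82% of all probe sets), and the median difference of the 9 was 0.02. *gut2*, which encodes mitochondrial glycerol-3-phosphate dehydrogenase and is the neighbour of *nmt1* on chromosome III, had values of 0.29, 0.11 and 0.29 in *rpb1-12XS2ACTD* with LatA, against −1.03, −1.01 and −0.84 in *rpb1-12XCTD* (difference 1.19 ± 0.08, adjusted p = 0.000315).

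**Figure D1:**
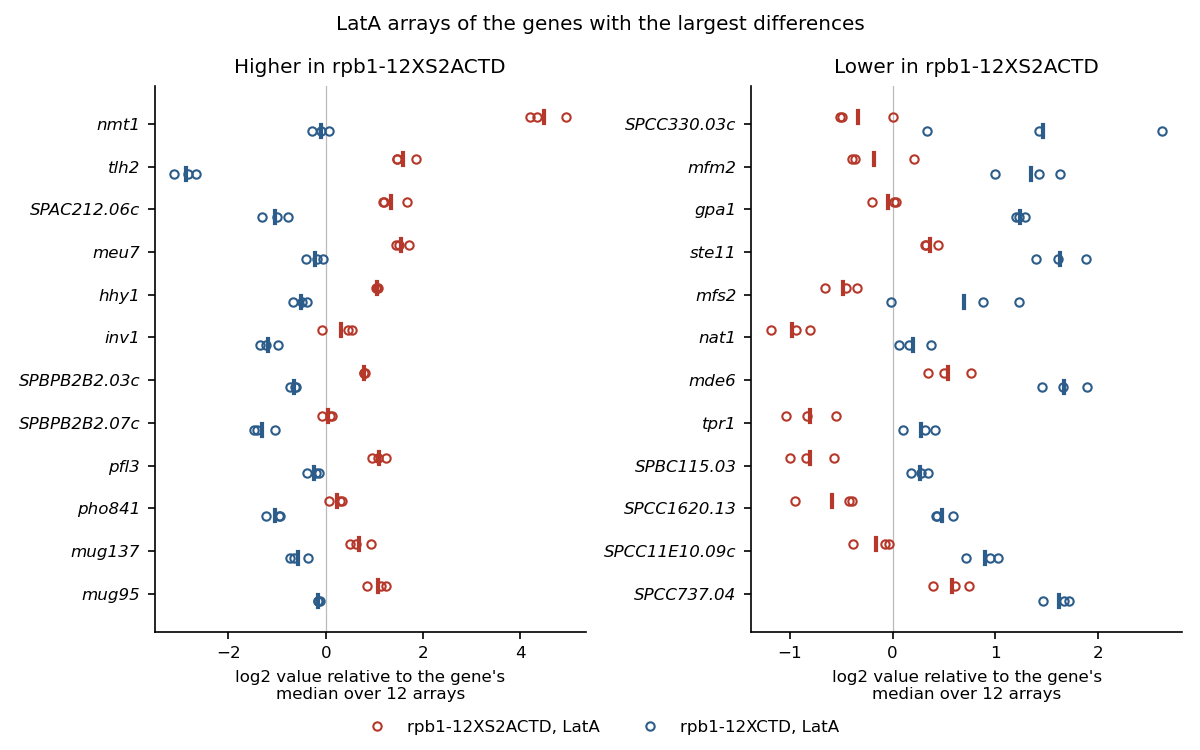
Log2 values, relative to the probe set median over 12 arrays, of the called genes with the largest rise and the largest fall on the single LatA arrays of *rpb1-12XS2ACTD* and *rpb1-12XCTD*. Points are arrays. Genes were drawn only if the 3 arrays of each strain did not overlap, a rule that all 235 called probe sets met. *nmt1* and *tlh2* stand apart with differences of 4.58 and 4.46, and the falls end at −1.80 for *SPCC330.03c*.

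*tlh2*, a gene of a RecQ-type helicase close to a telomere, was next. Its values with LatA were 1.46, 1.85 and 1.46 in *rpb1-12XS2ACTD* and −3.11, −2.67 and −2.84 in *rpb1-12XCTD*. The strains were separated by more than 4 log2 units on every array, with a difference of 4.46 ± 0.14 (adjusted p = 3.85e-05). Its second probe set, which matches several transcripts, differed by 2.84, and *SPAC212.06c*, annotated as a truncated copy of the helicase, by 2.38. These are near-identical copies, so their probe sets cannot be counted as separate genes. With DMSO the first *tlh2* probe set differed by 3.94, with the 2 strains apart on all 6 arrays (1.15, 3.29 and 3.19 in *rpb1-12XS2ACTD*, against −1.15, −1.59 and −1.44 in *rpb1-12XCTD*), although limma did not call it (adjusted p = 0.122). Of all probe sets 8.35% did not overlap with DMSO with *rpb1-12XS2ACTD* higher.

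The other large rises with LatA were spread over several functions. *inv1*, the invertase that splits sucrose outside the cell, rose by 1.5 ± 0.17 (adjusted p = 0.00209), with values of 0.47, −0.07 and 0.54 in *rpb1-12XS2ACTD*, against −0.98, −1.34 and −1.23 in *rpb1-12XCTD*. *hhy1* rose by 1.57, *meu7* by 1.77, *mug137* by 1.26 and *mug95* by 1.22. *SPBPB2B2.03c*, annotated as a degraded permease, rose by 1.45, and *SPBPB2B2.07c*, a gene of a family with the DUF999 domain, by 1.36. With DMSO the groups did not overlap for *hhy1*, *meu7*, *mug137*, *mug95*, *SPBPB2B2.03c* and *SPBPB2B2.07c* (8.35% of all probe sets did not overlap with *rpb1-12XS2ACTD* higher), and they overlapped for *inv1*, whose DMSO values were 0.07, −0.13 and 1.00 in *rpb1-12XS2ACTD* and 0.63, −1.40 and 0.35 in *rpb1-12XCTD*. *inv1* and *SPBPB2B2.07c* lost the call in a fit to all 12 arrays (adjusted p = 0.0787 and 0.143), which called 2.89% of all probe sets.

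Among the falls, *SPCC330.03c*, annotated as a protein of the cytochrome b5 family, had the largest size and the widest spread. Its values with LatA were 0.01, −0.50 and −0.52 in *rpb1-12XS2ACTD*, against 2.63, 1.42 and 0.33 in *rpb1-12XCTD*. The *rpb1-12XCTD* arrays differed among themselves by more than 2 log2 units, and the difference between strains was −1.80 ± 0.52 (adjusted p = 0.0413). *mfs2*, a membrane transporter of the major facilitator family, fell by 1.19 with a wide spread too, with values of −0.35, −0.46 and −0.66 in *rpb1-12XS2ACTD* and 1.23, 0.88 and −0.02 in *rpb1-12XCTD* (adjusted p = 0.0251). Both calls were lost without replicate 2 of LatA-treated *rpb1-12XCTD* (adjusted p = 0.0862 for *SPCC330.03c* and 0.0675 for *mfs2*) and without any 1 of the 3 LatA arrays of *rpb1-12XS2ACTD* (adjusted p = 0.0779, 0.133 and 0.0973 for *SPCC330.03c*, and 0.059, 0.0848 and 0.0669 for *mfs2*). The methods' t-test called neither. Steadier falls were those of *nat1* (−1.18), *SPCC11E10.09c*, a predicted alpha-amylase (−1.06), and *SPBC115.03*, a predicted oxidoreductase (−1.07). *mde6* (−1.13), *SPCC1620.13* (−1.07), of the phosphoglycerate mutase family, and *SPCC737.04* (−1.04) fell too, but were not called in the fit to 12 arrays.

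Genes of pheromone signalling were among the most often called. Fission yeast mates when nutrients run out: Ste11p, a transcription factor of the HMG-box type, turns on the genes of mating, secreted pheromones act through receptors and the G alpha protein Gpa1p, and the Byr2p, Byr1p and Spk1p kinase cascade carries the signal on to Ste11p. Of the 30 probe sets of this list 9 fell and 3 rose, so 40% were called against 4.82% of all probe sets. The median of the 30 was −0.06, close to the −0.05 of all probe sets, because 18 were not called. The list holds members that were called in opposite directions.

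*ste11* itself had LatA values of 0.44, 0.33 and 0.32 in *rpb1-12XS2ACTD*, against 1.88, 1.61 and 1.39 in *rpb1-12XCTD*. The mutant arrays were lower throughout, by −1.27 ± 0.12 (adjusted p = 0.00118), which is 0.416 of the *rpb1-12XCTD* level. The DMSO values were −0.75, −1.21 and −1.16 in *rpb1-12XS2ACTD*, against −0.54, −1.15 and −0.32 in *rpb1-12XCTD*. They overlapped between strains, and all 6 lay below the LatA values of either strain. The DMSO difference was −0.37 ± 0.23 (adjusted p = 0.72), and the difference between the LatA and DMSO effects, −0.90, did not pass the interaction test of limma (adjusted p = 0.381).

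Other components of signalling fell with it. *gpa1* had LatA values of 0.04, −0.20 and 0.02 in *rpb1-12XS2ACTD* and 1.29, 1.20 and 1.24 in *rpb1-12XCTD*, with a difference of −1.29 ± 0.07 (adjusted p = 0.000273). *mfm2*, a precursor gene of the M-factor pheromone, fell by 1.54 ± 0.21 (adjusted p = 0.00353), with 0.20, −0.40 and −0.36 in *rpb1-12XS2ACTD* and 1.63, 0.99 and 1.43 in *rpb1-12XCTD*. *map1*, the gene of a MADS-box transcription factor of mating-type specific genes, fell by 0.98 ± 0.12 (adjusted p = 0.00264). Like all 235 called probe sets, these genes showed no overlap of the strains with LatA, which 32.1% of all probe sets showed with *rpb1-12XS2ACTD* lower. *spk1*, *byr1* and *ste4*, the last the gene of an adaptor of the Byr2p kinase, were chosen for mention after their values were seen. They fell by 0.95, 0.86 and 0.72 (adjusted p = 0.00725, 0.000965 and 0.00621), and the strains were apart there too. *ste4* lost its call in the fit to 12 arrays (adjusted p = 0.0728).

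*mei2*, whose RNA-binding product starts meiosis, and *mam1*, the exporter of M-factor, were the weakest of the 9. *mei2* had 0.04, 0.13 and −0.06 in *rpb1-12XS2ACTD* and 1.05, 0.56 and 0.37 in *rpb1-12XCTD* (difference −0.62, adjusted p = 0.0309). The call was lost without any 1 of 5 arrays, through the fold change without replicate 1 of LatA-treated *rpb1-12XCTD* (−0.43) and through the adjusted p without replicate 2 of that group (0.0557) or replicate 1, 2 or 3 of LatA-treated *rpb1-12XS2ACTD* (0.0812, 0.0814 and 0.0805). *mam1* differed by −0.60 (adjusted p = 0.00303), just past the log2 threshold of 0.585, and its difference was −0.57 without replicate 1 of LatA-treated *rpb1-12XCTD* and −0.54 without replicate 3 of LatA-treated *rpb1-12XS2ACTD*. *mam2*, the P-factor receptor of M cells, differed by −0.58 (adjusted p = 0.0314) and lay just short of the threshold.

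The 3 genes of the list that rose act at the contact between mating cells, and were chosen for mention after their values were seen. *mam3*, the agglutinin of M cells, rose by 0.70 ± 0.09 (adjusted p = 0.0031), with 0.68, 0.83 and 0.52 in *rpb1-12XS2ACTD* and −0.08, 0.10 and −0.07 in *rpb1-12XCTD*. *map4*, its counterpart on P cells, rose by 0.61 ± 0.06 (adjusted p = 0.00151), and *fus1*, the formin that builds the actin focus for cell fusion, by 0.69 ± 0.19 (adjusted p = 0.0337). Without replicate 1 of LatA-treated *rpb1-12XCTD* the differences were 0.55 for *map4* and 0.46 for *fus1*, under the threshold. *fus1* was also lost without replicate 1, 2 or 3 of LatA-treated *rpb1-12XS2ACTD* (adjusted p = 0.0866, 0.12 and 0.0593), in the fit to 12 arrays and by the methods' t-test. 

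The same mating genes were read on the DMSO arrays. For the 9 that fell with LatA the median DMSO difference was −0.04, with 6 of the same sign. Only *gpa1* was without overlap in the same direction (1.19% of all probe sets did not overlap with *rpb1-12XS2ACTD* lower). *mei2* was without overlap in the opposite direction, with *rpb1-12XS2ACTD* higher by 0.19. For the 3 that rose the median DMSO difference was 0.72, and the DMSO groups did not overlap for any of them, against 8.35% of all probe sets (9.54% in either direction). None of the 12 passed the interaction test. The closest were *gpa1*, *byr1* and *spk1*, each with an adjusted p of 0.193.

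**Figure D2:**
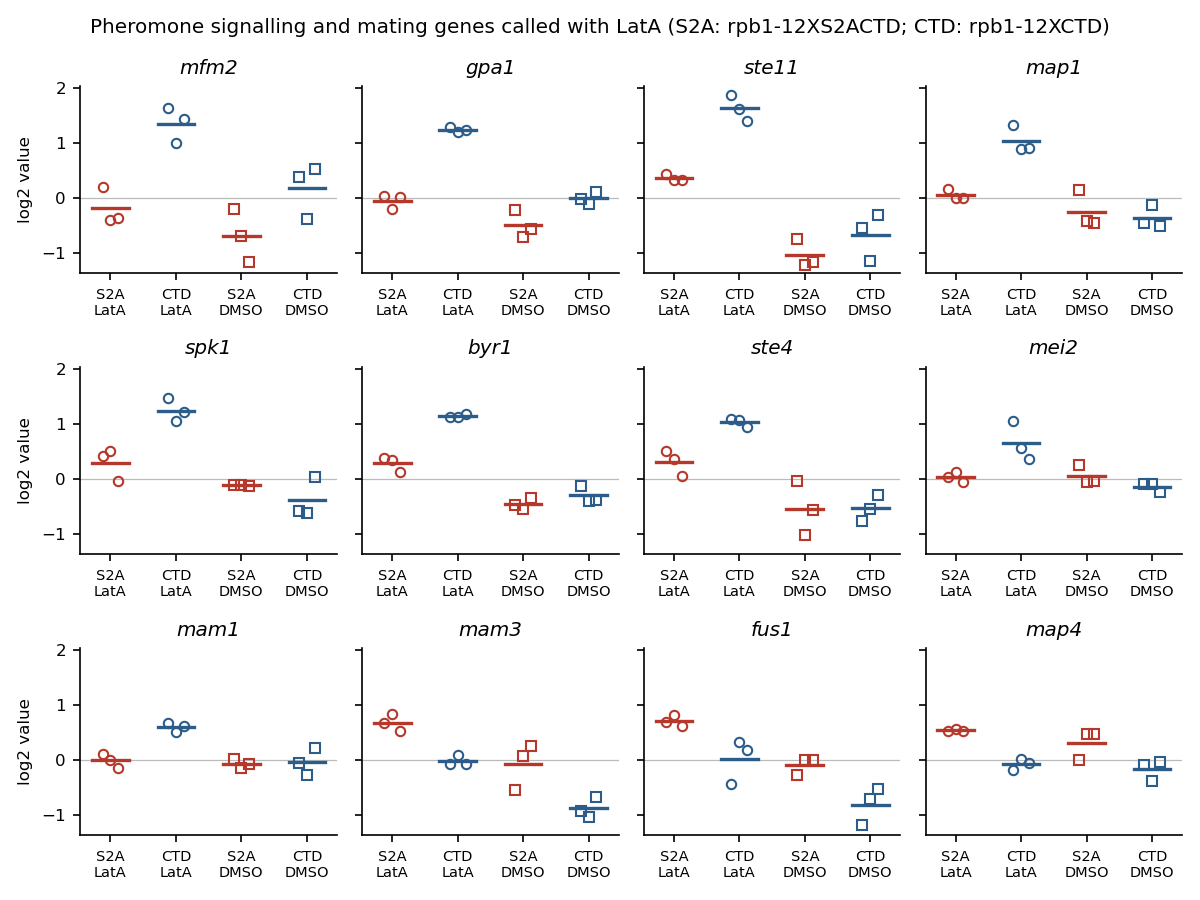
Log2 values, relative to the probe set median over 12 arrays, of the 12 called genes of pheromone signalling and mating in the 4 groups of 3 arrays, *rpb1-12XS2ACTD* left of *rpb1-12XCTD* within LatA and within DMSO. For 9 genes the LatA arrays of *rpb1-12XCTD* are the higher ones, and for *mam3*, *fus1* and *map4* those of *rpb1-12XS2ACTD* are higher with LatA and with DMSO.

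The markers of mating type were also read. The 2 probe sets of *mfm1* differed by 0.09 and 0.03, those of *mfm3* by −0.08 and −0.03, and the P cell genes *map2* and *map3* by 0.34 (adjusted p = 0.0176) and −0.07, all short of 1.5-fold. Of the M cell genes *mfm1*, *mfm2*, *mfm3*, *mam1* and *mam2*, *mfm2* and *mam1* were called. Because each probe set is centred, the markers show no presence or absence of a cell type.

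In the meiotic recombination and sporulation list 3 of 15 probe sets rose and 0 fell, against 2.05% and 2.77% of all probe sets, and 6 of the 15 differences were negative (median 0.15). *rec10*, a component of the meiotic chromosome axis, rose by 1.08 ± 0.18 (adjusted p = 0.00666), with 1.12, 1.17 and 0.94 in *rpb1-12XS2ACTD* and 0.43, −0.16 and −0.28 in *rpb1-12XCTD*. *dmc1*, the meiotic strand exchange protein, rose by 0.83 ± 0.14 (adjusted p = 0.00761), and *spn6*, a septin of sporulation, by 0.68 ± 0.13 (adjusted p = 0.0127). The strains were apart on the DMSO arrays as well, where *rec10* gave −1.04, 0.16 and 0.39 in *rpb1-12XS2ACTD* and −2.02, −2.20 and −2.25 in *rpb1-12XCTD*. With DMSO 8.35% of all probe sets did not overlap with *rpb1-12XS2ACTD* higher. *spn6* was lost without replicate 1 of LatA-treated *rpb1-12XCTD* (0.58) and without replicate 2 of LatA-treated *rpb1-12XS2ACTD* (adjusted p = 0.0518), and *rec10* in the fit to 12 arrays (adjusted p = 0.0638). The methods' t-test called none of *rec10*, *dmc1* and *spn6* (adjusted p = 0.0593, 0.0604 and 0.075).

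The *meu* and *mug* genes, collections of genes named for their upregulation in meiosis, gave 12 rises and 1 fall among 97 probe sets. The share that rose, 12.4%, stands beside 2.05% of all probe sets, and the median of the 97 was 0.14. *meu7* had 1.5, 1.70 and 1.44 with LatA in *rpb1-12XS2ACTD* and −0.19, −0.07 and −0.41 in *rpb1-12XCTD*, and *meu25* rose by 1.22 ± 0.10 (adjusted p = 0.000965). All 12 had a positive DMSO difference, with a median of 0.99, and for 10 of them the DMSO groups did not overlap (of all probe sets 70.4% were positive and 8.35% did not overlap with *rpb1-12XS2ACTD* higher).

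Genes near the ends of chromosomes I and II rose most often by position. The 72 probe sets of the 40 outermost genes at each of these ends held 19 rises (26.4%) and 1 fall, and their median was 0.33. Without the probe sets that match several transcripts, which at these ends include near-identical copies, 11 of 57 rose (19.3%), with a median of 0.31. On chromosome II the rises were 8 of 19 at the left end and 5 of 22 at the right end, and on chromosome I 3 of 16 and 3 of 15. Farther inside, 1.4% of genes on chromosome I and 1.27% on chromosome II rose. Chromosome III had 0 rises and 3 falls among 51 genes near its ends, and 2.4% rises elsewhere. All 19 rises had a positive DMSO difference, with a median of 1.18, against 70.4% positive over all probe sets, and the DMSO groups were apart for 15, against 8.35% of all.

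**Figure D3:**
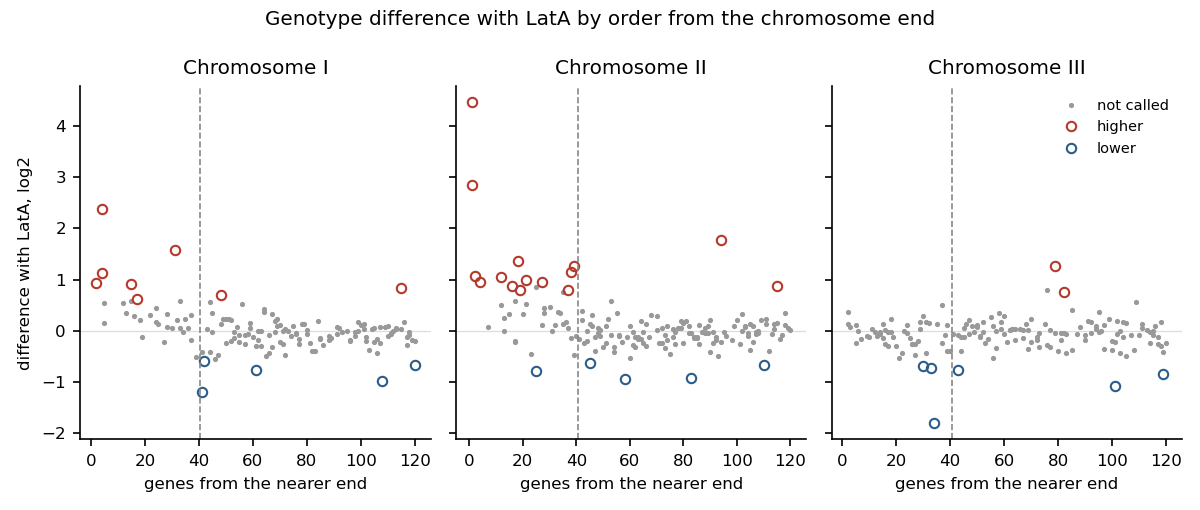
LatA difference in log2 (*rpb1-12XS2ACTD* minus *rpb1-12XCTD*) of named genes near the chromosome ends against their order from the nearer end. Each of chromosomes I, II and III has a panel, with called genes marked, and genes farther inside are not drawn. Within 40 genes of an end, 6 of 31 rose on chromosome I, 13 of 41 on chromosome II and 0 of 51 on chromosome III.

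Called genes lay side by side in 10 places, with 21 genes in all. Of 3883 probe sets with an order along a chromosome 183 were called. Whether more of them were neighbours than a random order would give was not tested. The longest run was *abc3*, *mug14* and *pho841* on chromosome II, which rose by 0.79, 1.14 and 1.27. Apart from *abc3*, *pho841*, *fus1* and *rid1*, the genes of this paragraph were named for their place after their values were seen. *ftm4* and *SPAC750.07c* at the right end of chromosome I rose by 1.13 and 0.93, and *urg2* and *urg1*, known as genes induced by uracil, fell by 0.92 and 0.85. *caf16* (−0.71) and *fus1* (0.69) were neighbours called in opposite directions, as were *rid1* (−0.91) and *set10* (0.82). *abc3*, a vacuolar ABC transporter gene, was the only one called of 12 iron probe sets (8.33%, against 4.82% of all probe sets). In a fit blocked on replicate number, which called 5.01% of all probe sets, 2 of the 12 were called. The *abc3* call was lost without replicate 3 of LatA-treated *rpb1-12XCTD* (0.57) and without replicate 1 or 2 of LatA-treated *rpb1-12XS2ACTD* (adjusted p = 0.0714 and 0.0778). *mug14* (adjusted p = 0.0729) and *abc3* (0.277) were not called in the fit to 12 arrays.

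Cell surface genes for flocculation gave 3 rises and 1 fall among 8 probe sets (50% called, against 4.82% of all probe sets), with a median of 0.46. *gsf2*, the main flocculin of fission yeast, had LatA values of 1.19, 0.94 and 1.06 in *rpb1-12XS2ACTD*, against −0.01, −0.03 and −0.09 in *rpb1-12XCTD*. The strains were clearly apart, by 1.1 ± 0.07 (adjusted p = 0.000315). *pfl3* rose by 1.33 ± 0.09 (adjusted p = 0.000478), with 1.23, 0.95 and 1.08 in *rpb1-12XS2ACTD* and −0.39, −0.20 and −0.15 in *rpb1-12XCTD*. *pfl9* rose by 0.62 (adjusted p = 0.00313) and *pfl2* fell by 0.69 (adjusted p = 0.00107), so members of the family moved in opposite directions. *pfl9* had 0.55 without replicate 3 of LatA-treated *rpb1-12XCTD*. The DMSO groups did not overlap for *gsf2* and *pfl9* (8.35% of all probe sets did not overlap with *rpb1-12XS2ACTD* higher), and overlapped for *pfl3* and *pfl2*.

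Genes of phosphate uptake and storage divided in the same way. Of 8 probe sets 1 rose and 2 fell (37.5% called, against 4.82% of all probe sets), with a median of −0.33. *pho841* rose by 1.27 ± 0.10 (adjusted p = 0.000772), with 0.34, 0.06 and 0.29 in *rpb1-12XS2ACTD* and −1.23, −0.93 and −0.97 in *rpb1-12XCTD*. *pho84* fell by 0.78 ± 0.09 (adjusted p = 0.00218), with −0.59, −0.80 and −0.70 in *rpb1-12XS2ACTD* and 0.26, −0.04 and 0.04 in *rpb1-12XCTD*. On the DMSO arrays the strains overlapped for both, with differences of 0.19 and −0.29. *pho842* fell by 0.59 (adjusted p = 0.0154) and was lost without replicate 1 of LatA-treated *rpb1-12XCTD* (−0.48) and without replicate 2 of LatA-treated *rpb1-12XS2ACTD* (adjusted p = 0.0631), after median centring, after quantile normalization and in the fit to 12 arrays.

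In carbon metabolism 4 of 23 probe sets rose (17.4%, against 2.05% of all) and 0 fell, with a median of 0.03. Beside *gut2* these were *pdc201* and *pdc202*, which encode pyruvate decarboxylases of ethanol fermentation, and *eno102*, an enolase gene. *pdc201* rose by 0.88 ± 0.06 (adjusted p = 0.000332), with 0.54, 0.49 and 0.66 in *rpb1-12XS2ACTD* and −0.32, −0.35 and −0.29 in *rpb1-12XCTD*. *eno102* rose by 0.79 (adjusted p = 0.0105, but 0.0704 by the methods' t-test) and *pdc202* by 0.62 (adjusted p = 0.00384), the second with 0.58 without replicate 1 of LatA-treated *rpb1-12XCTD* and 0.53 without replicate 2 of LatA-treated *rpb1-12XS2ACTD*. *ght1*, of the hexose transporters, rose by 0.75 (1 of 8 or 12.5%, adjusted p = 0.0065), but was not called in the fit to 12 arrays (adjusted p = 0.175). *cox17*, a copper chaperone for cytochrome oxidase, rose by 0.65 ± 0.05 (adjusted p = 0.000544), the only one called of 43 respiratory probe sets (2.33%), whose median was −0.11.

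Of 23 Mediator probe sets 3 fell and 0 rose (13.0% called, against 4.82% of all probe sets), with a median of −0.10. *med7* differed by −0.67 ± 0.09 (adjusted p = 0.00322), *med6* by −0.62 ± 0.08 (adjusted p = 0.00355) and *srb4* by −0.60 ± 0.13 (adjusted p = 0.0183), all core subunits of the complex that bridges activators and the polymerase. *med7* had −0.58, −0.52 and −0.85 in *rpb1-12XS2ACTD* and 0.08, 0.01 and −0.01 in *rpb1-12XCTD*. Replicate 3 was the lowest mutant array for each, and without it the differences of *med7*, *med6* and *srb4* were −0.58, −0.53 and −0.43, so that no Mediator gene was called. *med6* and *srb4* were not called in the fit to 12 arrays either (adjusted p = 0.0653 and 0.242). *tpr1*, of the Paf1 elongation complex, fell by 1.08 ± 0.13 (adjusted p = 0.0026), with −0.55, −0.84 and −1.04 in *rpb1-12XS2ACTD* and 0.41, 0.10 and 0.31 in *rpb1-12XCTD*. It was the only one called of 11 elongation factor probe sets (9.09%).

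The kinase that acts on serine 2 was itself measured. *lsk1* had LatA values of 0.29, 0.41 and 0.19 in *rpb1-12XS2ACTD*, against −0.31, −0.29 and −0.27 in *rpb1-12XCTD*, and lay at the 1.5-fold threshold with 0.59 ± 0.06 (adjusted p = 0.00183). Without replicate 1 of LatA-treated *rpb1-12XCTD* it was 0.58 and without replicate 2 of LatA-treated *rpb1-12XS2ACTD* 0.53, both under the threshold. It was the only one called of 12 CTD kinase and phosphatase probe sets (8.33%, against 4.82% of all probe sets). *lsc1*, its cyclin, differed by −0.29 (adjusted p = 0.00859), *lsg1*, the gamma subunit, by 0.21 (adjusted p = 0.272), and *rpb1* by −0.20 (adjusted p = 0.0373), all within 1.5-fold. Since both strains carry 12 repeats, *rpb1* values do not check the genotype labels.

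Of the genes of actin and the contractile ring 1 of 35 probe sets was called (2.86%, against 4.82% of all probe sets). That gene, *aip1*, encodes a protein that works with cofilin to disassemble actin filaments. Its LatA values were 0.07, −0.13 and −0.22 in *rpb1-12XS2ACTD*, against 0.79, 0.91 and 0.93 in *rpb1-12XCTD*. The strains did not overlap, as for every called probe set, and the difference was −0.97 ± 0.08 (adjusted p = 0.000965), or 0.511 of the *rpb1-12XCTD* level. With DMSO the values were −0.11, −0.76 and −0.80 in *rpb1-12XS2ACTD*, against 0.01, −0.01 and 0.33 in *rpb1-12XCTD*, apart as well but with a replicate spread that left it uncalled (−0.67, adjusted p = 0.52). Of all probe sets 1.19% did not overlap with DMSO with *rpb1-12XS2ACTD* lower. The median of the 35 was −0.01. The 12 probe sets of the Septation Initiation Network, the signalling pathway that triggers septum formation, had no call and a median of −0.16.

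Mitotic regulators gave 2 rises and 1 fall among 22 probe sets (13.6% called, against 4.82% of all probe sets). Of the 22 differences 18 were negative (median −0.22), against 3017 of 4875 over all probe sets. *nsk1*, a kinetochore and spindle protein, rose by 0.67 ± 0.07 (adjusted p = 0.00188), with 0.47, 0.55 and 0.43 in *rpb1-12XS2ACTD* and −0.31, −0.17 and −0.07 in *rpb1-12XCTD*. *cut12*, of the spindle pole body, rose by 0.60 ± 0.06 (adjusted p = 0.00179), under the threshold without replicate 3 of LatA-treated *rpb1-12XCTD* (0.57), replicate 1 (0.56) or replicate 2 (0.58) of LatA-treated *rpb1-12XS2ACTD*. *mbx1*, a MADS-box transcription factor gene, fell by 0.77 ± 0.14 (adjusted p = 0.00952). *clp1*, the Cdc14-type phosphatase, differed by −0.19 (adjusted p = 0.157). With DMSO the strains were apart for *nsk1* (0.71) and *cut12* (0.54), as they were for 8.35% of all probe sets with *rpb1-12XS2ACTD* higher.

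Of 37 probe sets for DNA replication and MBF targets 3 fell and 0 rose (8.11% lower, against 2.77% of all). Of the 37 differences 27 were negative, as were 3017 of 4875 over all probe sets, and the median was −0.11. *psf3*, of the GINS complex of the replicative helicase, fell by 0.98 ± 0.11 (adjusted p = 0.00194), with −0.74, −1.01 and −1.07 in *rpb1-12XS2ACTD* and 0.21, −0.10 and 0.00 in *rpb1-12XCTD*. *mcm6*, a subunit of the helicase, fell by 0.91 ± 0.12 (adjusted p = 0.00344), and *cig2*, the S phase cyclin, by 0.78 ± 0.17 (adjusted p = 0.0165). *cig2* was lost without replicate 2 of LatA-treated *rpb1-12XS2ACTD* (adjusted p = 0.0607). *psf3* and *cig2* were not called in the fit to 12 arrays (adjusted p = 0.0671 and 0.052).

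**Figure D4:**
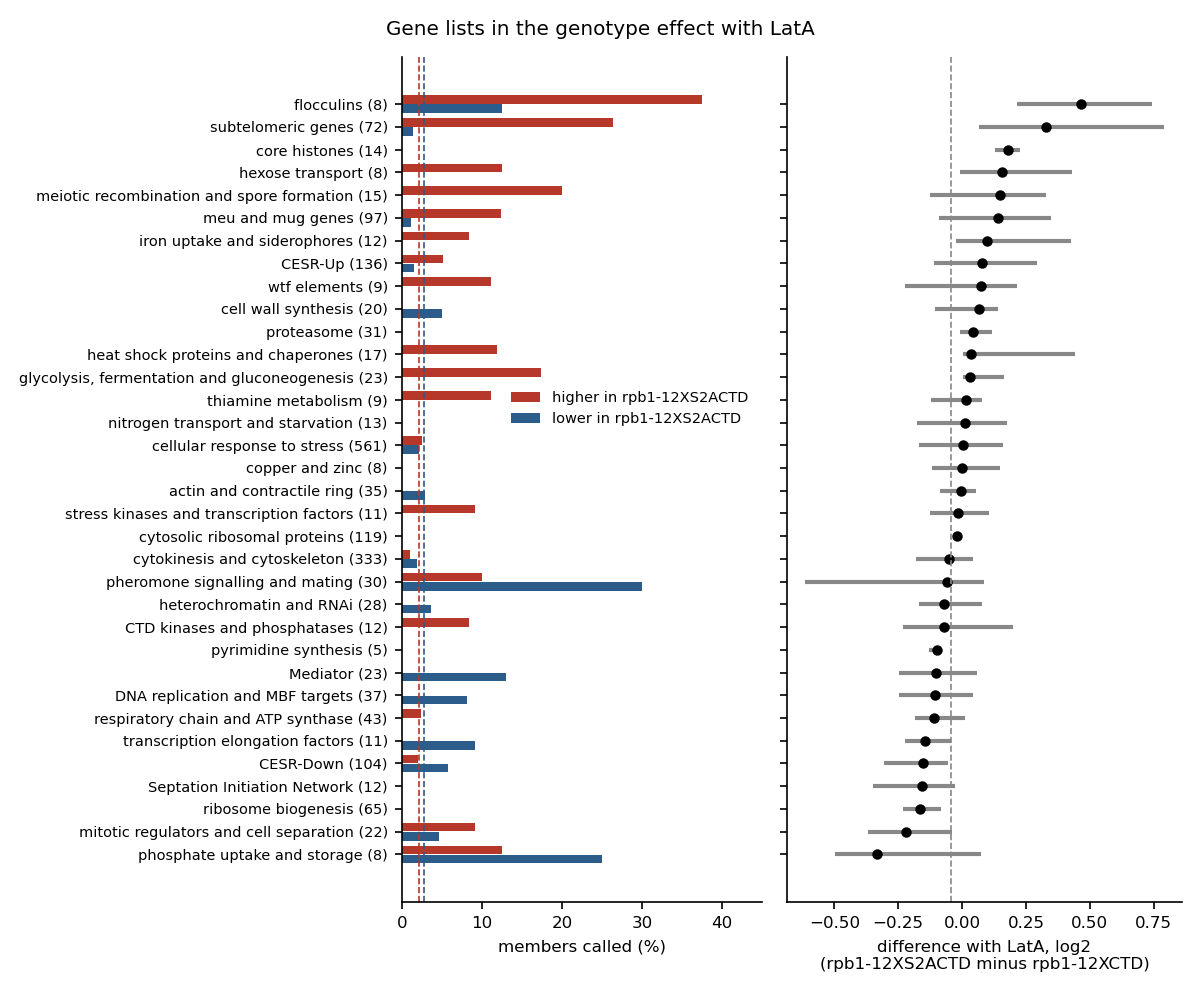
Left, bars give the share of each gene list called higher or lower in *rpb1-12XS2ACTD* with LatA. Right, points give the list median of the LatA difference in log2 (*rpb1-12XS2ACTD* minus *rpb1-12XCTD*), with a line between the quartiles. Dashed lines mark all 4875 probe sets, whose median is −0.05. Subtelomeric genes (median 0.33) and flocculins (0.46) lie to the high side, and the pheromone list holds called genes on both sides.

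The other lists of this paragraph held 1 or 2 calls each, and of all probe sets 2.05% were called higher and 2.77% lower. Among heat shock genes *ssa1*, an Hsp70, rose by 0.90 (adjusted p = 0.0216) and *hsp20* by 0.59 (adjusted p = 0.00812), 2 of 17 (11.8%). Neither was called in the fit to 12 arrays (adjusted p = 0.18 and 0.0542). *ssa1* was lost without replicate 1 or 2 of LatA-treated *rpb1-12XS2ACTD* (adjusted p = 0.0677 and 0.0777), and *hsp20* without these arrays (0.57 in each case) and without replicate 1 of LatA-treated *rpb1-12XCTD* (0.48). *hsr1*, a zinc finger transcription factor gene, rose by 0.75 ± 0.11 (adjusted p = 0.00474), 1 of 11 stress regulators. *chs2*, named for chitin synthase, fell by 0.60 (1 of 20 cell wall probe sets, adjusted p = 0.0208), and its call was lost without replicate 1 of LatA-treated *rpb1-12XCTD* (−0.47) or replicate 2 (adjusted p = 0.0595) or 3 (−0.48) of LatA-treated *rpb1-12XS2ACTD*, and in the fit to 12 arrays (adjusted p = 0.261). *wtf11* rose by 0.62 ± 0.05 (1 of 9, adjusted p = 0.000657).

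No probe set was called, at an adjusted or an unadjusted p, among 119 for cytosolic ribosomal proteins (median −0.02), 65 for ribosome biogenesis (−0.16), 31 for the proteasome (0.04), 14 for core histones (0.18, all 14 positive), 13 for nitrogen transport, 8 for copper and zinc and 5 for pyrimidine synthesis. *ura4*, the marker of both strains, differed by 0.51 (adjusted p = 0.0748).

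The lists taken from the study's supplement held calls in both directions. Of the 136 probe sets of the core environmental stress response that rise under stress 7 rose and 2 fell (6.62% called, median 0.08). Of the 104 that fall under stress 2 rose and 6 fell (7.69% called, median −0.15), against 4.82% called of all probe sets. Among the first were *rds1* (1.11, adjusted p = 0.0308), *SPBC1348.12*, a zinc finger gene (1.04, adjusted p = 0.00015), and *SPAC27D7.09c* (0.77, adjusted p = 0.033). *rds1* was lost without replicate 2 of LatA-treated *rpb1-12XCTD* (adjusted p = 0.0543) and without each LatA array of *rpb1-12XS2ACTD* (0.0874, 0.0862 and 0.0752). *SPAC27D7.09c* was lost without any 1 of 5 arrays, with 0.54 without replicate 1 of LatA-treated *rpb1-12XCTD* and adjusted p-values from 0.058 to 0.101 without the others. In the fit to 12 arrays the adjusted p was 0.104 for *rds1* and 0.123 for *SPAC27D7.09c*. The wider stress response list gave 14 rises and 12 falls among 561 (median 0.00), so 4.63% were called, close to the share of all probe sets.

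Of 333 probe sets for cytokinesis and the cytoskeleton 3 rose and 6 fell (median −0.05), so 2.70% were called against 4.82% of all. Beside *aip1* the falls included *klp8*, a kinesin-like protein gene (−0.91, adjusted p = 0.0271), *rid1* (−0.91, adjusted p = 0.00619) and *SPBC651.04* (−0.85, adjusted p = 0.0194). *klp8* was lost without replicate 1, 2 or 3 of LatA-treated *rpb1-12XS2ACTD* (adjusted p = 0.0554, 0.0724 and 0.0681), and *SPBC651.04* without replicate 2 of that group (adjusted p = 0.0639). *klp8* and *rid1* were not called in the fit to 12 arrays.

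The same strains on the 6 DMSO arrays, which the LatA comparison does not use, gave 0 called probe sets by limma (0%), with 131 at an unadjusted p under 0.05 and over 1.5-fold, 42 in the fit to 12 arrays, 35 with array weights and 75 by the methods' t-test unadjusted. The DMSO standard errors were the larger, with a median of 0.138, against 0.065 with LatA, so a count of 0 there does not show that the strains were alike. Without replicate 1 of DMSO-treated *rpb1-12XS2ACTD* 64 of 4875 were called, of which 45 were called in the same direction with LatA (4.82% of all were called with LatA in either direction). Leaving out any other single DMSO array gave 0. The highest correlation of this replicate was 0.45 within its own group and 0.75 with an array of another group.

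Probe sets that rose with LatA were mostly higher with DMSO too. Of the 100, 96 had a positive DMSO difference (70.4% of all probe sets), the median was 0.71 (0.06 over all), 56 were more than 1.5-fold higher (3.04% of all), and in 57 the DMSO groups did not overlap (8.35% of all). Array by array, the median of the 100 with LatA was 0.60, 0.58 and 0.48 in *rpb1-12XS2ACTD*, against −0.33, −0.24 and −0.35 in *rpb1-12XCTD*. With DMSO it was 0.01, 0.37 and 0.43 in *rpb1-12XS2ACTD*, against −0.57, −0.36 and −0.34 in *rpb1-12XCTD*. All mutant arrays lay above all *rpb1-12XCTD* arrays in this median, with replicate 1 of DMSO-treated *rpb1-12XS2ACTD* the lowest of the mutant arrays.

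Probe sets that fell with LatA were mostly lower with DMSO too, by a smaller median. Of the 135, 114 had a negative DMSO difference (29.6% of all), the median was −0.24, and 14 were more than 1.5-fold lower (0.677% of all). The DMSO groups did not overlap in 4 with *rpb1-12XS2ACTD* lower (1.19% of all) and in 1 with it higher (8.35% of all). The difference between the rises and the falls in this respect was not tested. Their array medians with LatA were −0.28, −0.39 and −0.55 in *rpb1-12XS2ACTD*, against 0.39, 0.34 and 0.26 in *rpb1-12XCTD*. With DMSO they were 0.22, −0.29 and −0.31 in *rpb1-12XS2ACTD*, against −0.06, 0.02 and 0.35 in *rpb1-12XCTD*. Replicate 1 of DMSO-treated *rpb1-12XS2ACTD* lay among the DMSO arrays of *rpb1-12XCTD* here. Without it the median DMSO difference of the 135 was −0.42 (123 of them negative, 35.2% of all), and that of the 100 was 0.82 (96 positive, 64.8% of all). Without replicate 3 of DMSO-treated *rpb1-12XCTD* the median of the 135 was −0.09 (87 negative, 17% of all), and that of the 100 was 0.73 (97 positive, 83% of all). The part of these 2 arrays in the contrast between rises and falls was not tested.

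**Figure D5:**
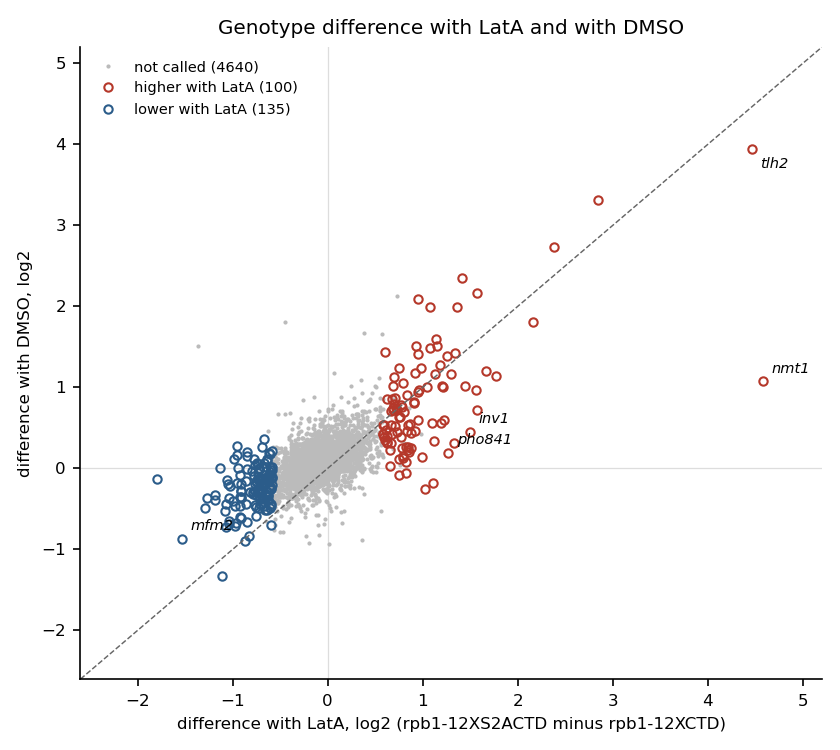
Difference between strains (*rpb1-12XS2ACTD* minus *rpb1-12XCTD*, log2) on the LatA arrays, horizontal, and on the DMSO arrays, vertical, for all 4875 probe sets with the 100 called higher and the 135 called lower with LatA marked. The higher set has a median DMSO difference of 0.71 and the lower set of −0.24, and *nmt1* is the point far to the right at 4.58 and 1.08.

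The size of the difference was larger with LatA than with DMSO in 66 of the 100 rises and 131 of the 135 falls, a description only, since the probe sets were chosen on their LatA size. The difference between the 2 effects was tested by the interaction term of limma over all 12 arrays, which called *nmt1* alone (3.50 ± 0.33, adjusted p = 0.00221; 0.0205% of probe sets). Without replicate 3 of DMSO-treated *rpb1-12XCTD* 52 probe sets passed this test and without replicate 1 of DMSO-treated *rpb1-12XS2ACTD* 3 did.

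Of the 235 LatA calls 142 (66 higher, 76 lower) stayed whichever of the 6 arrays was left out. Gene length went with the difference only weakly. Over 3883 genes with a length the correlation with its logarithm was −0.10 by Pearson (−0.16 by Spearman rank), across genes that are not independent and share the same 6 arrays, and 0.04 by Pearson with DMSO.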

How the data were processed

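The authors normalized the Affymetrix arrays by RMA (GeneSpring GX, per the methods) and deposited log2 values, whose median is 0 for every probe set by a step the sources used here do not describe. Centring drops out of differences between arrays, but no filter on low signal could be applied, and arrays have no read depth: 3 replicates per group set the precision. Of 4875 probe sets 3906 were named, 2857 through the array annotation and the rest through the study's gene list (names only); 969 were unnamed and stayed in every test. Order along chromosomes came from RefSeq (ASM294v3).

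limma 3.58.1 in R 4.3.3 was run on the 6 LatA arrays, on the 6 DMSO arrays and, for the interaction, on all 12, after tests on simulated data. Tables were made in Python 3.11.15. The members and lists were chosen with earlier results of these data known. Genes were named if among the 12 largest called rises or falls, among 11 fixed genes, 7 mating-type markers, the 6 largest called interactions, or the 4 largest called members of a list. The 12 largest rises and falls were taken from probe sets with a gene name whose LatA groups did not overlap. Other genes are marked in the text as chosen after their values were seen. Lists are described by counts and medians alone. The methods' t-test, with equal variances and Benjamini-Hochberg adjustment, was an alternative, as were the other settings listed under the dependence on processing. In the LatA groups arrays of the same replicate number deviated together (correlations 0.34, 0.20 and 0.26), a pairing read from the values alone, the sources used here not saying what the numbers stand for. Promoter motifs and protein lengths were not analysed here. The result of 1 called gene is not reported here.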

Additional observations from a re-analysis of the deposited data

Results flagged for a closer look

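The rise of *nmt1*, the thiamine-repressed gene of thiamine synthesis, differed between treatments. The difference between strains was 4.58 with LatA and 1.08 with DMSO, and the difference of these, 3.50, passed the interaction test of limma over the 12 arrays (adjusted p = 0.00221). The 3 LatA arrays of *rpb1-12XS2ACTD* held the high values. It was the only probe set to pass, and with limma's trend and robust options 0 passed, with 128 at an unadjusted p under 0.05 and over 1.5-fold.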

How the results depend on the processing

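Of 74 called probe sets that were followed singly, 34 kept the call under every alternative but the 2-fold threshold, and no result changed sign. Of these calls 24 were lost in the 12-array fit, 25 by the methods' t-test, 9 with array weights, 7 with quantile normalization, 4 with median centring (*mam1*, *srb4*, *pho842* and *chs2*) and 3 to 18 with 1 LatA array left out, the most without replicate 2 of *rpb1-12XS2ACTD*. With LatA the 235 calls became 1367 with no fold threshold, 51 at over 2-fold, 141 in one fit to all 12 arrays and 152 by the methods' t-test, each of the 141 and the 152 being among the 235. They ran from 204 to 255 with an array left out. With the replicate number as a block, 244 were called, 234 of them among the 235, and none of the 74 calls was lost. Quantile normalization gave 227, median centring 224, and leaving out probe sets with several matching transcripts gave 222. With DMSO the count of 0 became 42 in the 12-array fit, 75 by the methods' t-test unadjusted and 35 with array weights, and ran from 0 to 64 with an array left out. The interaction count of 1 became 0 with trend and robust options (128 at an unadjusted p) and 19 after quantile normalization, and ran from 1 to 52 with an array left out. The cause of these shifts was not tested. The 12-array fit shares the wider DMSO spread with the LatA arrays. No filter on dim probe sets could be run.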
